A study of Mus musculus with 12 samples.

Results

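Transcripts of 9 tricarboxylic acid (TCA) cycle enzymes were followed across the 4 conditions of an RNA-seq experiment in FL5.12 MycER cells. The genes were taken by name from the gene table, which listed all 9: Cs, Idh3a, Idh3b, Idh3g, Ogdh, Suclg1, Sdha, Fh1 and Mdh2. They are 9 of 21671 genes in the table, and all 9 passed the filter on low values that left 9745 genes to test, namely 1 RPKM or more in 3 or more libraries. The RPKM of a gene is its read count corrected for gene length and for sequencing depth.

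FL5.12 is a mouse prolymphocytic cell line of the BALB/c strain that needs interleukin 3 to grow. All 12 libraries, controls included, came from cells transduced with a retrovirus that constantly expresses MycER, a fusion of MYC whose activity is switched on by 4-hydroxytamoxifen (OHT). The cells were a drug-resistant pool and not a set of separate clones, and had been passaged in medium with reduced glucose before the inhibitor was used. Each condition had 3 biological replicates. Untreated cells received neither agent. OHT cells were kept with 100 nM OHT for 72 h. IACS cells received 135 nM IACS-010759, an inhibitor of complex I of the electron transport chain (ETC), for 24 h. OHT_IACS cells were primed with 100 nM OHT for 48 h and then given 135 nM IACS-010759 for 24 h with OHT still present. No group received OHT without the MycER transgene, so an effect of OHT itself and an effect of MycER activation cannot be told apart. In bulk RNA, fewer cells and less RNA per cell also cannot be told apart.

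The TCA cycle runs in the mitochondrial matrix, where it oxidises the acetyl group that enters as acetyl-CoA. Its dehydrogenases hand electrons to the ETC, either as NADH, which complex I oxidises, or directly, since succinate dehydrogenase is also complex II of the chain. The cycle further supplies citrate, 2-oxoglutarate, succinyl-CoA and oxaloacetate for the synthesis of lipids, amino acids and haem, and MYC is known to raise many genes of mitochondrial metabolism in growing cells.

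The cells were checked against markers of the labelled cell type. Among B-lymphoid precursor markers, Pax5, Il7r and Rag1 were at 0 in every library, whereas Cd79a, Cd79b and Ptprc had a mean of at least 1 RPKM. All 3 genes for interleukin 3 receptor chains were expressed, with a summed level of 69.2 to 82.5 RPKM. Of 7 myeloid markers, 4 reached a mean of 1 RPKM. The erythroid factor Gata1 lay between 26.6 and 32.8 RPKM, and the T cell and the fibroblast and stroma lists each summed to less than 1 RPKM in every library. Defining markers of the lymphoid label were therefore absent.

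The libraries also differed in depth. Totals by which the RPKM had been divided ran from 10376530 to 14550158 reads, and the 9 enzymes held between 509 reads (Suclg1) and 2054 reads (Ogdh) in a library. OHT replicates 1 and 3 and IACS replicate 3 had the smallest totals (10376530, 10770476 and 11133789 reads). OHT replicate 2 stood apart from the other OHT libraries, with 13956222 reads. This split comes up beside each result that it touches.

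Promoter sequence is shown for the enzymes whose transcripts passed the test in any comparison, since these are the genes on which the results turn. RefSeq windows of the GRCm38.p6 build were present for 8 of the 9 genes, with none for Idh3a. Each line gives the 200 bases before the gene start, 5′ to 3′ on the strand of the gene, in lower case. Capitals mark a CCAAT box, read as CCAAT or, on the other strand, ATTGG.
Idh3b, chr2:130284452-130284651, minus strand: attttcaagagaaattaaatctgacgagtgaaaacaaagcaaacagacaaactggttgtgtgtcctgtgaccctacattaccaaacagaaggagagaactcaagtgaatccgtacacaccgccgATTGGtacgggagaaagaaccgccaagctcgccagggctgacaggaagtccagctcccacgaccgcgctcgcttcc
Idh3g, chrX:73786898-73787097, minus strand: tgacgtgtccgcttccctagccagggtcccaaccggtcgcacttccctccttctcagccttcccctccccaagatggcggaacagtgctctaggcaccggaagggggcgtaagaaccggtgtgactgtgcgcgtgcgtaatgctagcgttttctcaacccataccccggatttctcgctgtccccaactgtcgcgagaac
Sdha, chr13:74350241-74350440, minus strand: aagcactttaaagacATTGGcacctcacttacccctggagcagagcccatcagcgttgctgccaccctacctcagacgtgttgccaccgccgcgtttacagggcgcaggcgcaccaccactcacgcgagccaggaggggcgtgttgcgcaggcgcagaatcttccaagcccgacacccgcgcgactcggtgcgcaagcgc
Fh1, chr1:175625636-175625835, minus strand: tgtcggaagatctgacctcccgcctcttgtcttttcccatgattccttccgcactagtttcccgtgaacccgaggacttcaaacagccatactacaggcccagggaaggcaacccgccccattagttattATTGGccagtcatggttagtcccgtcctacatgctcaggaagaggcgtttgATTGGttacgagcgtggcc
Mdh2, chr5:135778449-135778648, plus strand: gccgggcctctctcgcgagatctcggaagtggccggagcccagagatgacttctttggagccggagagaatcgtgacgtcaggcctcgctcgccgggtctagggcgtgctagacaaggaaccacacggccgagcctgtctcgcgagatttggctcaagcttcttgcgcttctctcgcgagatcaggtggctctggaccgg

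Both strands of each window of 300 bases were searched for CACGTG, the E-box to which MYC binds, for CCAAT, for GCGCATGCG, which resembles the site of NRF1, and for TGATGCAA, which resembles the composite site of C/EBP and ATF factors. CCAAT was found in windows of 5 of the 8 genes (Cs, Idh3b, Ogdh, Sdha and Fh1), while it is held by 41.1% of 27025 genes with a window. CACGTG was found for 1 of the 8 genes, in windows of alternative starts of Ogdh, against 8.09% of all genes. GCGCATGCG was also found for Ogdh alone, against 1.95% of all genes, and TGATGCAA for none of the 8 against 1.03%. These matches describe the letters in the window only.

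In untreated cells, the transcripts of the 9 enzymes spanned a 4.84-fold range of RPKM, a unit that is already divided by gene length. Idh3b and Idh3g, which encode regulatory subunits of the NAD-dependent isocitrate dehydrogenase, were the most abundant. Their levels were 57.6 ± 2.08 RPKM (SD, n = 3) for Idh3b and 55.3 ± 0.883 RPKM for Idh3g, and the libraries of these neighbours overlapped. Mdh2, the mitochondrial malate dehydrogenase, followed at 52.0 ± 0.914 RPKM. Cs, the citrate synthase that joins acetyl-CoA to oxaloacetate, was at 48.6 ± 0.398 RPKM. Next came Sdha, the flavoprotein subunit of succinate dehydrogenase, at 34.6 ± 1.06 RPKM, and Fh1, the fumarase, at 33.9 ± 0.592 RPKM, again with overlapping libraries. Idh3a, the catalytic subunit of isocitrate dehydrogenase, was at 28.9 ± 0.696 RPKM, below both of its regulatory partners. The lowest levels were those of Ogdh, the E1 subunit of the 2-oxoglutarate dehydrogenase complex, at 19.7 ± 0.455 RPKM and of Suclg1, the alpha subunit of succinyl-CoA ligase, at 11.9 ± 0.226 RPKM. Apart from the pairs Idh3b and Idh3g, and Sdha and Fh1, no neighbours in this order overlapped between untreated libraries.

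The gene lengths behind these levels affect the order. For Ogdh and Suclg1, the lengths by which reads had been divided (6936 and 3852 bases) exceeded the longest annotated GENCODE transcript (4127 and 2767 bases). Divided by a transcript's length, both genes would have higher levels. Idh3b shares 5 exonic bases with Nop56, a gene on the opposite strand, and none of the other 8 enzymes shares exonic bases with another gene. Csl, a gene with a sequence close to that of Cs, stayed between 0.213 and 0.540 RPKM in every library.

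Across all 12 libraries, no enzyme varied by more than 1.30-fold, the range of Idh3b from 55.4 to 72.1 RPKM. The narrowest range was 1.13-fold, for Suclg1.

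**Figure D1:**
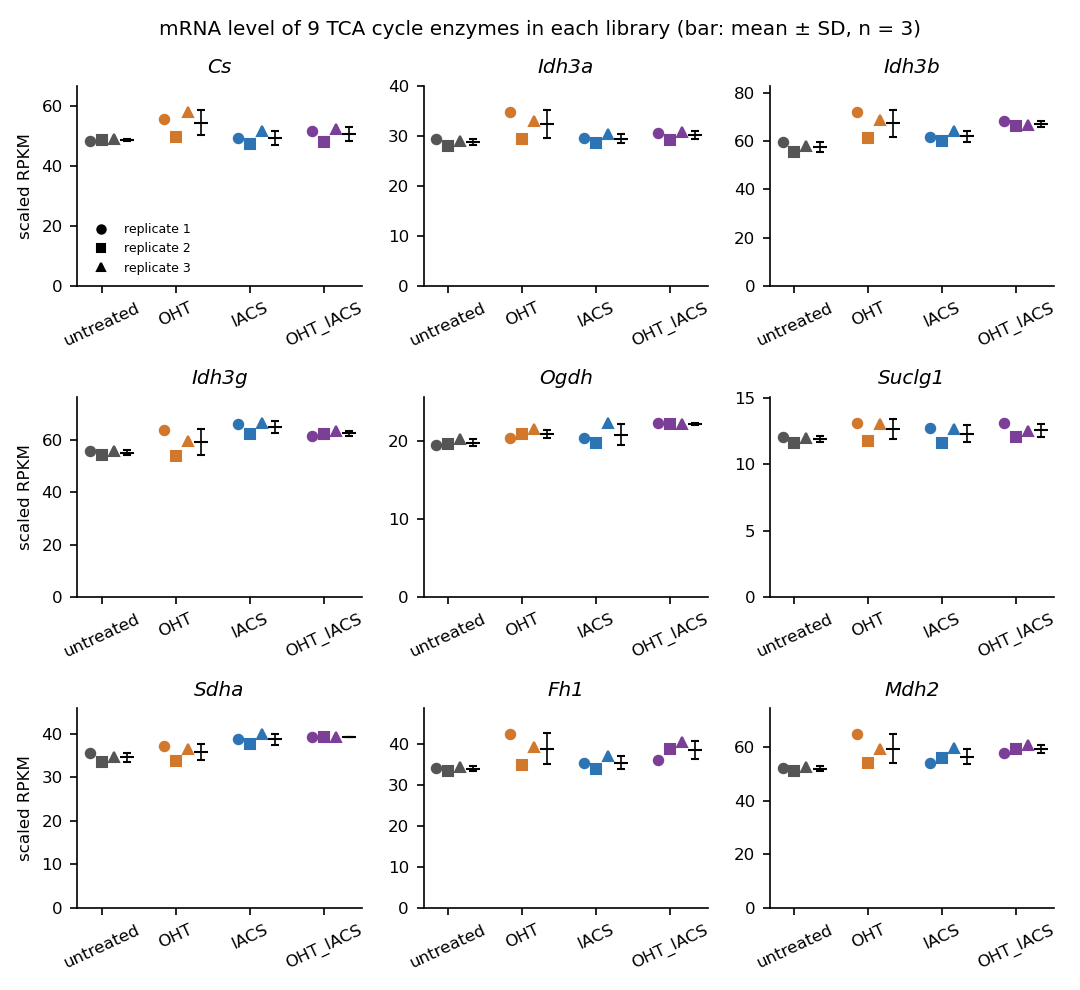
Scaled RPKM (vertical axis, from 0) of each enzyme in each library of the 4 conditions (horizontal axis), with symbols for replicates and bars for the mean ± SD of 3 libraries. OHT replicate 2 (orange square) lay below the other OHT libraries for every enzyme but Ogdh, and Idh3g and Sdha in IACS cells (blue) lay above all their untreated libraries.

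The first comparison asked how the enzymes differed when MycER had been activated. In OHT cells, 4 of the 9 transcripts rose relative to untreated cells and none fell: Idh3b, Mdh2, Fh1 and Idh3a. Their increases were small, from 12.3% for Idh3a to 16.7% for Idh3b, and none of the 4 calls held once library depth entered the fit, as given below. All 9 estimates were above 0, with a median log2 fold change of 0.16 against 0.01 over all genes tested. Among all 9745 genes, 18.2% were higher and 18.2% were lower at an adjusted p below 0.05.

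Idh3b measured 59.5, 55.4 and 57.9 RPKM in untreated replicates 1 to 3 and 72.1, 61.3 and 68.7 RPKM in the corresponding OHT libraries. The groups did not overlap, and OHT replicate 2 was the closest to untreated cells. The log2 fold change was 0.22 ± 0.07 (SE; 95% interval 0.08 to 0.36; adjusted p = 0.0166, limma with Benjamini-Hochberg adjustment).

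Mdh2, which closes the cycle by making oxaloacetate from malate, measured 52.2, 51.0 and 52.8 RPKM in untreated cells and 65.0, 54.3 and 59.3 RPKM in OHT cells. All OHT libraries exceeded all untreated ones, replicate 2 again by the least. Its log2 fold change was 0.19 ± 0.07 (SE; limma, adjusted p = 0.0378).

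Fh1, which hydrates fumarate to malate, measured 34.1, 33.3 and 34.4 RPKM without and 42.3, 34.8 and 39.2 RPKM with OHT. Here OHT replicate 2 was separated from the highest untreated library by a margin smaller than the spread of the untreated libraries. The log2 fold change was 0.19 ± 0.07 (SE; limma, adjusted p = 0.0464).

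Idh3a measured 29.5, 28.1 and 29.0 RPKM in untreated cells and 34.9, 29.4 and 33.1 RPKM in OHT cells. The groups overlapped, since OHT replicate 2 lay just under untreated replicate 1. A log2 fold change of 0.17 ± 0.06 (SE; limma, adjusted p = 0.0397) nevertheless passed the threshold.

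The other 5 enzymes did not pass the test. Cs came closest, with 48.2, 48.7 and 49.0 RPKM in untreated cells against 55.8, 49.7 and 58.0 RPKM in OHT cells, and a log2 fold change of 0.16 (limma, adjusted p = 0.0654). Ogdh, at 0.08 (adjusted p = 0.204), had non-overlapping groups too, as 20.4 to 21.4 RPKM with OHT stood against 19.4 to 20.2 RPKM without. Idh3g (0.10), Suclg1 (0.09) and Sdha (0.05) overlapped with untreated cells, and the 95% interval of Sdha ran from -0.05 to 0.16. In total, the groups did not overlap for 5 of the 9 enzymes, and for 46% of all genes tested.

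**Figure D2:**
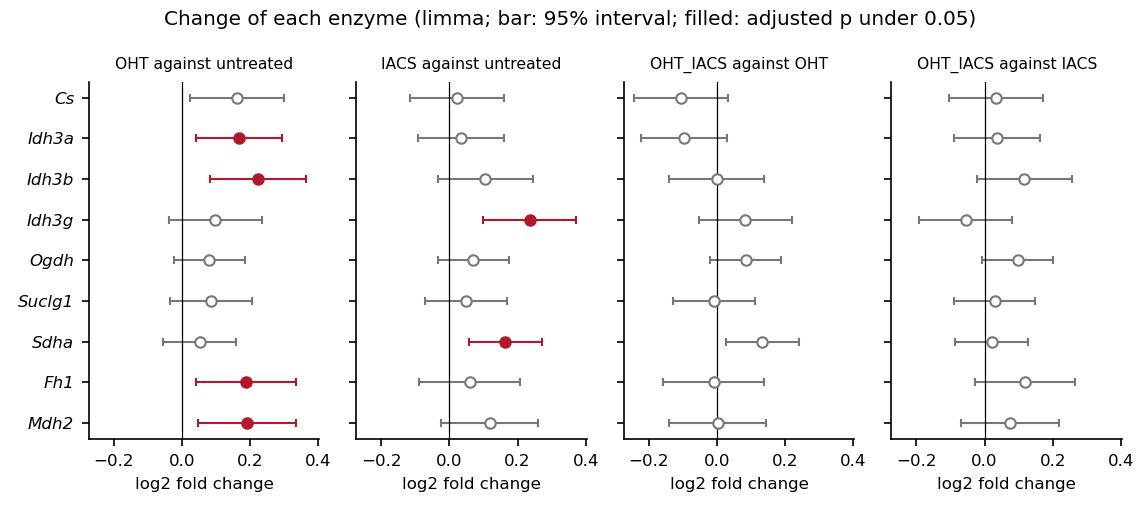
Log2 fold change (horizontal axis) of each enzyme (vertical axis) in 4 comparisons, with 95% intervals from limma. Filled red points are the 6 calls at an adjusted p below 0.05, which are 4 in OHT against untreated cells and 2 in IACS against untreated cells.

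These differences moved with the depth of the libraries. Relative to the untreated mean, the median of the 9 enzymes was 0.21 and 0.19 on the log2 scale in OHT replicates 1 and 3, which had the smallest totals of all libraries, and 0.03 in OHT replicate 2, which had 13956222 reads. IACS replicate 3, with 11133789 reads, had a median of 0.16, while IACS replicates 1 and 2, with 13076509 and 13729131 reads, had medians of 0.06 and -0.003. The 3 OHT_IACS libraries, at 11792608 to 11913079 reads, had medians of 0.16 to 0.19. Thus the 6 libraries with the smallest totals all had higher medians than the 6 libraries with the largest totals. The smaller ones were OHT replicates 1 and 3, IACS replicate 3 and all OHT_IACS libraries. The larger ones were all untreated libraries, IACS replicates 1 and 2 and OHT replicate 2. Depth therefore largely coincided with OHT, and depth and OHT cannot be fully told apart in these libraries.

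Within groups, the reads of each enzyme grew less than in proportion to the library total. The slope of log2 reads on the log2 total was between 0.617 (Fh1) and 0.98 (Ogdh), where a slope of 1 would be proportional. Over all genes tested, the median slope dropped from 1.39 in genes under 0.1 reads per base to 0.184 in genes above 1 read per base. The median log2 fold change in OHT cells went from -0.06 to 0.22 across the same bins. With 0.155 (Suclg1) to 0.792 (Idh3b) reads per base, the enzymes belonged to the 3 bins between 0.1 and 1 reads per base, whose median log2 fold changes in OHT cells were 0.02 for 0.1 to 0.3 reads per base, 0.08 for 0.3 to 0.5 and 0.14 for 0.5 to 1.

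When the log2 library total was added to the fit as a covariate, none of the 9 enzymes was called in OHT against untreated cells, although 12.3% of all genes were called higher. At an unadjusted p below 0.05 there was 1 enzyme, Idh3b. Idh3b kept the highest estimate, at 0.10 ± 0.03 (SE; limma, adjusted p = 0.0561), and the median of the 9 enzymes was 0.04. OHT replicates 1 and 3 had smaller totals than every untreated library, so this fit may also take out part of a difference due to OHT. Without OHT replicate 1 or OHT replicate 3, no enzyme was called either, where 15.5% and 12.9% of all genes were called higher. Without OHT replicate 2 there were 6 calls, beside 23.1% of all genes. A fit of untreated and OHT libraries alone also gave 0 calls, beside 15.8% of all genes. Over 23 alternative settings, Idh3b was called in 18, Idh3a and Mdh2 in 11 each, Fh1 in 10, Cs in 4 and Idh3g in 1. The calls of Cs came with limma voom (adjusted p = 0.0274), RPKM as deposited (0.0221), the replicate block (0.0319) and without OHT replicate 2 (0.00474). The cause of the depth differences was not tested.

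**Figure D3:**
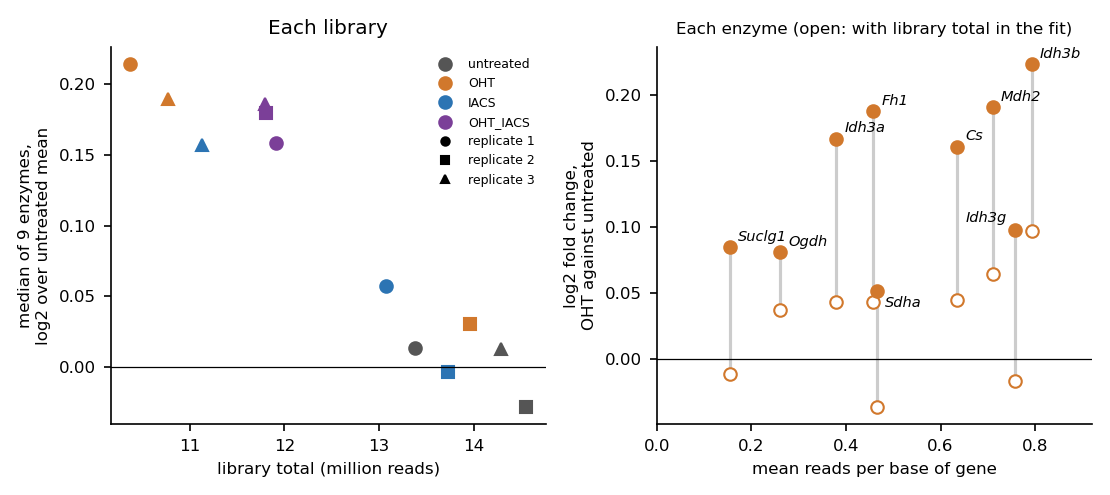
Left, the median log2 level of the 9 enzymes over the untreated mean in each library (vertical axis) against the library total (horizontal axis). Right, the log2 fold change of each enzyme in OHT against untreated cells (vertical axis) against its mean reads per base (horizontal axis), before (filled) and after (open) the library total entered the fit. OHT replicates 1 and 3 combine the smallest totals with the highest medians, and every open point on the right lies below its filled one.

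Myeloid transcripts moved with the OHT groups as well. The 7 markers summed to 63.3 to 73.1 RPKM in untreated and 61.8 to 70.5 RPKM in IACS cells, against 17.2 to 20.8 RPKM in OHT and 16.9 to 18.1 RPKM in OHT_IACS cells, mostly through S100a8 and S100a9. None of the 7 was at 0 in every library. Their part in the differences of the enzymes was not tested.

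The second comparison concerned the response of nonprimed cells to the complex I inhibitor. With IACS-010759, Idh3g and Sdha rose relative to untreated cells and none of the 9 enzymes fell. These 2 of 9 compare with 8.15% of all genes called higher and 7.74% called lower. The median log2 fold change of the 9 enzymes was 0.07, against 0.004 over all genes, and the groups did not overlap for 4 enzymes (Idh3b, Idh3g, Sdha and Mdh2) and for 38.6% of all genes.

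Idh3g, the gamma subunit through which isocitrate dehydrogenase is allosterically regulated, measured 55.8, 54.3 and 55.8 RPKM in untreated cells and 66.4, 62.3 and 66.6 RPKM in IACS cells. Every IACS library was above every untreated library, including replicates 1 and 2, whose totals were close to those of untreated cells. The increase of 17.7% was the largest change of any of the 9 enzymes in any comparison (log2 fold change 0.24 ± 0.06, SE; limma, adjusted p = 0.0227).

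Sdha, which passes electrons from succinate into the chain downstream of complex I, measured 35.6, 33.5 and 34.7 RPKM in untreated and 38.8, 37.6 and 40 RPKM in IACS cells. The groups did not overlap, and the log2 fold change was 0.16 ± 0.05 (SE; limma, adjusted p = 0.0388).

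Unlike the calls in OHT cells, both of these stood with the library total in the fit. Idh3g was then at 0.17 ± 0.03 (SE; limma, adjusted p = 0.00621) and Sdha at 0.11 ± 0.03 (adjusted p = 0.0229), when 8.87% of all genes were called higher. Both calls were lost without any 1 of the 3 untreated libraries, without IACS replicate 1 or without IACS replicate 3, each of which left a group of 2 libraries and at most 6.14% of all genes called higher. Over the 23 alternative settings, Idh3g was called in 18 and Sdha in 13.

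For the other 7 enzymes the response to IACS-010759 was not past the threshold. Mdh2 had a log2 fold change of 0.12 (limma, adjusted p = 0.252) and Idh3b one of 0.11 (adjusted p = 0.301). Cs was at 0.02, with a 95% interval from -0.12 to 0.16, and Idh3a at 0.03, with an interval from -0.09 to 0.16. Changes of up to about 0.16 in either of these genes are thus within the error of 3 libraries against 3.

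In OHT-primed cells, the same inhibitor gave no call among the 9 enzymes, where 11.9% of all genes were higher and 11.8% were lower than in OHT cells. At an unadjusted p below 0.05 there was 1 enzyme, Sdha, and limma voom on the recovered reads gave 0 calls. Sdha measured 37.3, 33.8 and 36.6 RPKM in OHT cells and 39.4, 39.2 and 39.4 RPKM in OHT_IACS cells, without overlap, and its log2 fold change was 0.13 ± 0.05 (SE; limma, adjusted p = 0.0687). Idh3g was at 62.7 ± 0.968 RPKM (SD, n = 3) in OHT_IACS cells and 59.3 ± 5 RPKM in OHT cells, a log2 fold change of 0.08 (adjusted p = 0.372). The groups did not overlap for 2 enzymes (Ogdh and Sdha) and for 36.9% of all genes.

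Here the library total changed the outcome in the other direction. With it in the fit, both Sdha (0.14 ± 0.03, SE; limma, adjusted p = 0.00271) and Idh3g (0.09 ± 0.03, adjusted p = 0.0371) were called higher in OHT_IACS than in OHT cells, among 13.6% of all genes. In that fit the enzymes called for the response to IACS-010759 were Idh3g and Sdha in nonprimed and in primed cells. Quantile normalization also gave these 2 calls in primed cells. Without OHT replicate 2, in contrast, Cs and Idh3a were called lower in OHT_IACS cells, as were 15.4% of all genes. The comparisons of nonprimed and primed cells share no libraries, although they share the fitted slope on the library total and the estimate of each gene's spread.

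Whether the response to the inhibitor depended on priming was tested as an interaction (the response in primed minus the response in nonprimed cells). It gave 0 calls among the 9 enzymes by limma and 0 by limma voom, and 0 enzymes had an unadjusted p below 0.05. Over all genes, 0.144% were called. Estimates ran from -0.15 for Idh3g to 0.02 for Ogdh. The 95% interval of Idh3g ran from -0.35 to 0.04 and that of Sdha from -0.18 to 0.12, so the loss of the whole nonprimed response (0.24 and 0.16) in primed cells would lie within both intervals.

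In cells under IACS-010759, the presence of OHT likewise gave no call. OHT_IACS and IACS cells differed by log2 fold changes from -0.06 (Idh3g) to 0.12 (Fh1), and 0 of 9 enzymes were called by limma or by limma voom, with 0 at an unadjusted p below 0.05. Of all genes, 12.3% were higher and 14.3% lower. With the library total in the fit, Idh3g was called lower in OHT_IACS cells (-0.09 ± 0.03, SE; limma, adjusted p = 0.0451), as were 15% of all genes. Idh3b, at 67.2 ± 1.21 RPKM (SD, n = 3) in OHT_IACS and 62.0 ± 2.12 RPKM in IACS cells, had a log2 fold change of 0.12 (adjusted p = 0.211).

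Ratios between subunits of 1 complex are free of the scaling of a library, but not of differences between genes in how reads grew with depth. They were taken after the values above had been seen, so they are given without a test. Isocitrate dehydrogenase holds catalytic alpha subunits with beta and gamma subunits. The ratio of Idh3g to Idh3a RPKM was 1.89, 1.93 and 1.92 in untreated cells and 2.24, 2.18 and 2.19 in IACS cells. It was 1.84, 1.84 and 1.80 in OHT cells and 2.01, 2.14 and 2.06 in OHT_IACS cells. From low to high, the order was OHT, untreated, OHT_IACS and IACS, and no neighbours in this order overlapped. Means were 15% higher with IACS-010759 in nonprimed cells and 13.3% higher in primed cells.

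The ratio of Idh3g to Idh3b differed in the same direction, from 0.960 ± 0.0212 (SD, n = 3) in untreated cells to 1.05 ± 0.0220 in IACS cells, and from 0.880 ± 0.0109 in OHT cells to 0.933 ± 0.0289 in OHT_IACS cells. Neither pair of groups overlapped. The ratio of Idh3b to Idh3a was also higher with IACS-010759, by 5.05% in nonprimed and 6.87% in primed cells. With OHT it was higher by 3.96% without the inhibitor and by 5.75% under it. The groups did not overlap in any of these comparisons. In the 2 ratios of Idh3g, OHT replicate 2 did not stand apart. It was at 1.84 for Idh3g to Idh3a, as was OHT replicate 1, and for Idh3g to Idh3b it lay between the other OHT libraries.

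Succinate dehydrogenase joins Sdha and the iron-sulphur subunit Sdhb to the membrane anchors Sdhc and Sdhd. The ratio of Sdha to Sdhd was 0.530 ± 0.00402 in untreated cells and 0.615 ± 0.0173 in IACS cells, a mean higher by 16.0% without overlap. Between OHT (0.516 ± 0.0342) and OHT_IACS cells (0.637 ± 0.0103) the mean differed by 23.5%, again without overlap, and OHT replicate 2 (0.554) stood above the other OHT libraries (0.487 and 0.507). The ratios of Sdha to Sdhb and of Sdha to Sdhc overlapped in all 4 comparisons, with means within 2.17% of each other for Sdhb and 1.72% for Sdhc. Of the 3 partners, Sdhd was thus the one whose ratio to Sdha separated cells with and without the inhibitor. The log2 fold change of Sdhd was -0.05 in IACS against untreated cells (limma, adjusted p = 0.705), and -0.15 with the library total in the fit (adjusted p = 0.00494).

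Succinyl-CoA ligase pairs Suclg1 with either Suclg2, which makes the enzyme GDP-forming, or Sucla2, which makes it ADP-forming. Suclg1 itself was called in no comparison, whereas Suclg2 rose with IACS-010759 in nonprimed cells (log2 fold change 0.26, limma, adjusted p = 0.00412) and in primed cells (0.22, adjusted p = 0.00854). Sucla2 rose with OHT (0.26, adjusted p = 0.00114). The ratio of Suclg2 to Sucla2 was 1.53 ± 0.0771 in untreated, 1.32 ± 0.0291 in OHT, 1.79 ± 0.0742 in IACS and 1.64 ± 0.0977 in OHT_IACS cells. OHT and untreated libraries did not overlap in it, nor did IACS and untreated libraries, nor OHT_IACS and OHT libraries.

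**Figure D4:**
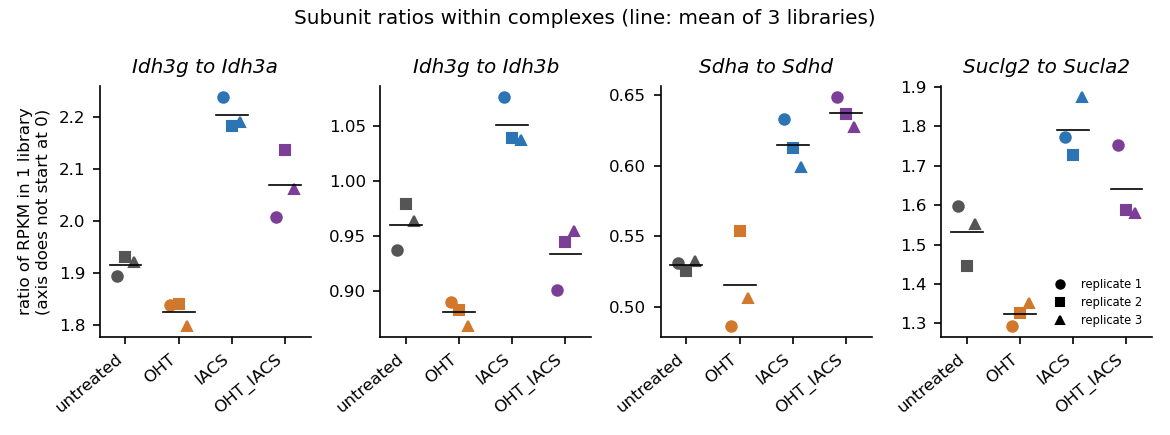
Ratio of the RPKM of 2 subunits (vertical axis, which does not start at 0) in each library of the 4 conditions (horizontal axis), with a line at the mean of 3 libraries. The mean ratio of Idh3g to Idh3a is 1.92 in untreated and 2.20 in IACS cells, and that of Sdha to Sdhd 0.530 and 0.615.

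The 9 enzymes were set beside 36 other genes around the cycle, of which 31 could be tested. Ogdhl, Pdk2, Pdk4, Aco1 and Me3 did not pass the filter on low values. In OHT against untreated cells, 14 of the 31 rose and 1 fell, where 18.2% of all genes were called in either direction taken alone. Among the other subunits of the cycle, 4 of 9 rose, led by Dld (0.28), Sucla2 (0.26) and Idh2 (0.26). Of 12 genes for pyruvate entry 6 rose and 1 fell, of 6 cytosolic counterparts and exits 4 rose, and of 4 assembly factors of succinate dehydrogenase none was called (0 at an unadjusted p below 0.05, limma). The median log2 fold changes of these lists were 0.09, 0.17, 0.24 and 0.01 in that order, beside 0.01 over all genes tested. With the library total in the fit they were -0.03, 0.15, 0.14 and -0.06, beside 0.003 over all genes. Dld (0.24, limma, adjusted p = 0.00167) and Sucla2 (0.21, adjusted p = 0.0243) were then still called, while Idh2 was at 0.12 (adjusted p = 0.0531) and Dlst at 0.09 (adjusted p = 0.201).

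The 2 largest differences with OHT were in genes that control how pyruvate enters the cycle. Pdp1, a phosphatase that activates pyruvate dehydrogenase, went from 2.32, 2.21 and 2.11 RPKM in untreated cells to 5.73, 5.82 and 5.70 RPKM in OHT cells (log2 fold change 1.34, limma, adjusted p = 2.67e-07). Pdk1, a kinase that inactivates the same enzyme, went from 9.31, 9.22 and 9.39 RPKM to 16.9, 16.0 and 16.5 RPKM (0.82, adjusted p = 1.31e-07). Pcx, the pyruvate carboxylase that makes oxaloacetate, fell from 10.8 ± 0.34 RPKM to 7.86 ± 0.37 RPKM (SD, n = 3; log2 fold change -0.46, adjusted p = 4.23e-05). In all 3 genes OHT replicate 2 lay close to the other OHT libraries. With the library total in the fit, their log2 fold changes were 1.42, 0.81 and -0.45, and each was still called. Under this fit 11 of the 31 genes were called higher and 2 lower, beside 12.3% and 11.9% of all genes. The 2 called lower were Pcx and Sdhb, whose log2 fold change was -0.15 (adjusted p = 0.0352).

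Under IACS-010759, 3 of the 31 genes rose and 4 fell in nonprimed cells, beside 8.15% and 7.74% of all genes. The list medians were 0.10 for the other subunits, -0.03 for pyruvate entry, -0.04 for cytosolic counterparts and exits and -0.12 for assembly factors. With the library total in the fit these medians were 0.008, -0.04, -0.03 and -0.17. There were then 3 calls higher and 6 lower, beside 8.87% and 7.47% of all genes, and the calls added were those of Sdhd and of the citrate lyase Acly (-0.14, limma, adjusted p = 0.0167). Besides Suclg2, the risers were Dld (0.20), the E3 subunit that the 2-oxoglutarate and pyruvate dehydrogenase complexes share, and the kinase Pdk3 (0.17). The largest fall was that of Idh1, the cytosolic NADP-dependent isocitrate dehydrogenase, from 7.93, 8.99 and 8.28 RPKM to 3.92, 3.10 and 3.13 RPKM (log2 fold change -1.29, limma, adjusted p = 7.64e-07). It contrasts with the mitochondrial Idh3 subunits, whose estimates in the same comparison were 0.03 to 0.24. Pdp2 (-0.42), the complex component Pdhx (-0.23) and the assembly factor Sdhaf2 (-0.20) also fell.

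In primed cells 3 of the 31 genes rose with the inhibitor, namely Pcx (0.30), the pyruvate carrier subunit Mpc2 (0.23) and Suclg2, and 3 fell, namely Idh1 (-0.76), Sdhaf2 (-0.26) and Pdk1 (-0.20), beside 11.9% and 11.8% of all genes. With the library total in the fit, 7 were called higher and 7 lower, beside 13.6% and 15% of all genes. Idh1 measured 10.7, 10.9 and 11.5 RPKM in OHT and 7.08, 6 and 6.35 RPKM in OHT_IACS cells. Between OHT_IACS and IACS cells, 12 of the 31 rose and 1 fell, beside 12.3% and 14.3% of all genes. None of the 31 was called for the interaction by limma, with 3 at an unadjusted p below 0.05.

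**Figure D5:**
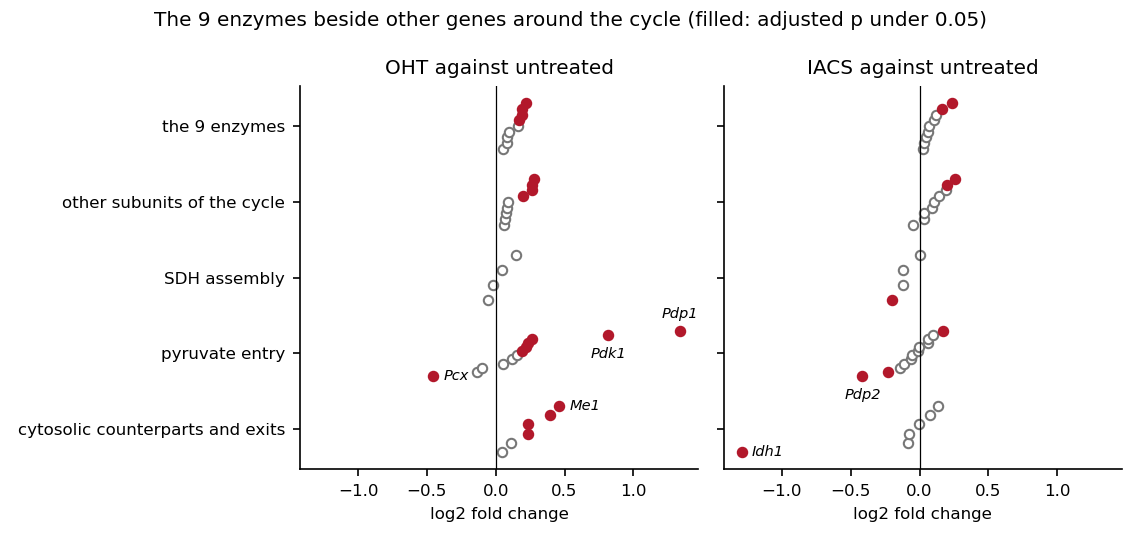
Log2 fold change (horizontal axis) of the 9 enzymes and of the tested genes in 4 lists around the cycle (rows), in OHT (left) and IACS (right) against untreated cells, with filled points for an adjusted p below 0.05. The 9 enzymes lie between 0.02 and 0.24, whereas Pdp1 (1.34) and Idh1 (-1.29) lie far outside this range.

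Among themselves, the 9 enzymes varied together over the 12 libraries. The correlation of each with the mean of the other 8, on log2 values, ran from 0.637 (Ogdh) to 0.939 (Idh3b). The genes whose pattern was most like the mean of the 9 were Lcp1 (Pearson r = 0.986), Ddb1 (0.984), Eif3h (0.983), Rpn2 (0.981) and Psat1 (0.981). All 5 are abundant transcripts, with 0.524 to 0.878 reads per base, and these libraries share the differences in depth described above. The values are therefore descriptions of 12 points and were not tested.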

How the data were processed

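Total RNA from 12 samples of FL5.12 MycER cells was depleted of ribosomal RNA and sequenced as stranded libraries. Per the labels, the authors used TopHat2 2.0.8, SAMtools, featureCounts 1.4.5-p1 and DESeq2 with mm9. The deposited table gives RPKM per library. Further deposited columns hold log2 changes and adjusted p-values from comparisons by the authors and were not used here. Whether counting used the strand is not given in the sources used here.

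The smallest steps between RPKM values gave back how many reads each gene held, how long it was counted to be and how deep the library was, with whole reads (within 0.002) for 15451 of 15451 genes above 0. Each library was scaled by the median of its ratios to the geometric means of the genes, and log2(RPKM + 0.1) was fitted with limma 3.58.1 (R 4.3.3). Fold changes are on this scale, which slightly understates changes of low genes. All 12 libraries in 4 groups of 3 entered a single fit with a mean-variance trend, restricted to genes that reached 1 RPKM in 3 or more libraries. Tests were two-sided in 5 comparisons, with Benjamini-Hochberg adjustment within each over all 9745 genes and a threshold of 0.05. The procedure was tested on simulated data with reads in proportion to the library totals. Such data do not cover the departures from proportion described above. Alternatives were other pseudocounts, filters and scalings, voom on recovered reads, the library total, no trend, a replicate block, only the compared groups, and each library left out in turn. P-values measure the spread between these libraries. Library totals ran from 10376530 to 14550158 reads.

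The members and lists were chosen with earlier results of these data known. Named are the 9 enzymes, partner subunits of their complexes, at most 3 called genes of each list and comparison, the 5 genes most correlated with the mean of the 9 and, for the check of the cell type, genes of the marker lists. Exon overlaps and transcript lengths came from GENCODE vM21 and promoters from RefSeq, both on GRCm38, which is not the build of the counts. No coordinates of the counts were used. Figures used Python 3.11.15 and matplotlib 3.10.9. The value of 1 gene on those marker lists is not reported here.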

Additional observations from a re-analysis of the deposited data

How the results depend on the processing

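In OHT against untreated cells, the 4 calls became 1 without the filter, 2 with quantile normalization, 2 without the mean-variance trend, 0 with only the compared groups and 0 with the library total, and 0 to 6 when 1 library was left out (0 without untreated replicate 2, OHT replicate 1 or OHT replicate 3, and 6 without OHT replicate 2). In IACS against untreated cells, the 2 calls became 1 without the filter and 0 to 2 with a library left out. For OHT_IACS against OHT, 0 calls became 2 with quantile normalization, 2 with the library total and 0 to 2 with a library left out. For OHT_IACS against IACS, 0 calls became 2 with quantile normalization, 1 with the library total and 0 to 1 with a library left out (1 without IACS replicate 3). The interaction stayed at 0 throughout (0 to 0 with a library left out). The cause was not tested. The replicate numbers did not pair the libraries, since the correlation of deviations over 18 same-numbered pairs ran from -0.172 to 0.104, and with the replicate block there were 5 calls in OHT, 2 in IACS and 0 in the other comparisons.

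Over all alternative settings, 45 estimates for single enzymes had the opposite sign to the main fit. They belonged to 19 pairs of an enzyme and a comparison, none of which was called in the main fit. With the library total in the fit, these were Idh3g (-0.016), Suclg1 (-0.0114) and Sdha (-0.0359) in OHT against untreated cells, Cs (-0.044), Idh3a (-0.0363), Suclg1 (-0.00723) and Fh1 (-0.0227) in IACS against untreated cells, Idh3b (0.012), Suclg1 (0.00211) and Fh1 (0.00543) in OHT_IACS against OHT cells, Cs (-0.00297), Idh3a (-0.00374), Suclg1 (-0.00202) and Sdha (-0.0081) in OHT_IACS against IACS cells, Suclg1 (0.00934), Sdha (0.0278) and Fh1 (0.0281) for the interaction. With quantile normalization, these were Idh3g (-0.0435) and Sdha (-0.0202) in OHT against untreated cells, Cs (-0.0174) in IACS against untreated cells, Idh3b (0.0372), Suclg1 (0.0116) and Fh1 (0.0386) in OHT_IACS against OHT cells, Cs (-0.00217) in OHT_IACS against IACS cells, Sdha (0.0203) for the interaction. With only the compared groups, it was Idh3b (0.00649) in OHT_IACS against OHT cells. With RPKM as deposited, it was Ogdh (-0.0128) for the interaction. With each library left out in turn, estimates ran through 0 for Cs (-0.0115 to 0.0553) in IACS against untreated cells, Idh3b (-0.0642 to 0.0467), Suclg1 (-0.0557 to 0.0209), Fh1 (-0.0829 to 0.0533) and Mdh2 (-0.0587 to 0.065) in OHT_IACS against OHT cells, Suclg1 (-0.0146 to 0.0577) and Sdha (-0.00274 to 0.0414) in OHT_IACS against IACS cells, Ogdh (-0.0219 to 0.0658) for the interaction. With 509 to 2054 reads per enzyme and library and 3 libraries a group, single enzymes had standard errors of 0.05 to 0.07 in comparisons of 2 groups.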
